A study of Homo sapiens with 9 samples.

Results

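The LSD1 and HP1γ peaks called 30 min after progestin were compared with each other: 20495 LSD1 peaks and 23836 HP1γ peaks, 44331 of the 118560 peaks deposited for the series. All peaks of both lists were members, and none was filtered out. All cells were T47D-MTVL, a derivative of the T47D breast cancer line, which has progesterone and estrogen receptors, with an integrated reporter under the mouse mammary tumour virus promoter. They were kept in charcoal-treated serum and then without serum before 10 nM R5020, a synthetic progestin, was added for 30 min, and fixed with formaldehyde for chromatin immunoprecipitation and sequencing. Unstimulated cells, called 0 min, gave 34990 LSD1 and 31845 HP1γ peaks. Each list came from 1 library, so no difference below has a replicate check, and no p-value was computed. Intervals are 95% Wilson intervals over peaks or genes and cover counting error only. Lists of BPTF sites and gene levels of histone H2A in the same cells were used as side measurements. No input library was analysed here, and the read depth of the LSD1 and HP1γ libraries was unknown, so differences in peak number or score cannot be told apart from depth. All lists came from this 1 line, and with no expression measured its luminal markers could not be checked.

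LSD1, encoded by KDM1A, is a flavin-dependent histone demethylase that removes methyl groups from lysine 4 of histone H3 and works with the CoREST and NuRD repressor complexes. HP1γ, encoded by CBX3, reads methylated lysine 9 of histone H3 through its chromodomain and is found in silent and in transcribed chromatin. In breast cancer cells both have been described as parts of a repressive complex at hormone-regulated genes, from which the activated progesterone receptor releases them. The lists therefore address where each protein was called once the hormone had acted for 30 min, and how far the places of the 2 proteins matched.

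The 2 proteins had few places in common, and the strongest LSD1 peaks differed in sequence from the strongest HP1γ peaks. Of the 12 highest-scored LSD1 peaks, 9 lay in tandem repeats, in which a short unit follows itself many times, against 3 of the 12 highest-scored HP1γ peaks. The score is the authors' own value per peak, with 30 as its lowest, and was used only within a list. Stretches of these peaks show the difference. They are plus-strand sequence of GRCh37, the build of the files. Capitals mark each copy of the 12 bases that recur most often in the peak. The first 4 stretches were LSD1 peaks without an HP1γ peak, the next 2 were peaks of both proteins, and the last 2 were HP1γ peaks without LSD1.
LSD1 near TMC6, chr17:76111700-76111804: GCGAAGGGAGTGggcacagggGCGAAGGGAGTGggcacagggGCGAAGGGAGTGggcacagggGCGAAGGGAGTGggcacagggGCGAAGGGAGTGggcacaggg
LSD1 near DBNDD1, chr16:90070044-90070208: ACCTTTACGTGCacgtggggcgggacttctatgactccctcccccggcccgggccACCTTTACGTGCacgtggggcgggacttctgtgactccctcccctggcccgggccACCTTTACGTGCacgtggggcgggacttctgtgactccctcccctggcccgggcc
LSD1 in PIEZO1, chr16:88838123-88838242: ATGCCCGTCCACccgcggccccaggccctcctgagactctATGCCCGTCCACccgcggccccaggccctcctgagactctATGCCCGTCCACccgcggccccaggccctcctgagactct
LSD1 in CDH4, chr20:59864759-59864863: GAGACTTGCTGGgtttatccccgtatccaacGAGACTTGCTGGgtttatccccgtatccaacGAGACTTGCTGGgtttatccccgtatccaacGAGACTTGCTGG
LSD1 and HP1γ, between genes, chr1:163521881-163521997: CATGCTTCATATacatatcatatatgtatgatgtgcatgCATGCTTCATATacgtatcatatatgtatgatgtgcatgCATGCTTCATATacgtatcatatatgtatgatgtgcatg
LSD1 and HP1γ in LGR5, chr12:71957721-71957837: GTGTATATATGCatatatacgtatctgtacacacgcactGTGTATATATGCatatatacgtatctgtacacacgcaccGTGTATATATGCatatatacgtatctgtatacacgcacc
HP1γ, between genes, chr6:8827843-8827947: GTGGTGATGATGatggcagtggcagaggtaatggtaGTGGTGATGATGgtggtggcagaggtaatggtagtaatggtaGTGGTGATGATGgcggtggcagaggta
HP1γ on chromosome 7, chr7:1396966-1397070: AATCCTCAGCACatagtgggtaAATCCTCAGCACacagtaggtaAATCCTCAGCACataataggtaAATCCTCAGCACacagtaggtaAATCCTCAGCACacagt

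The peak near TMC6, a gene of the transmembrane channel-like family, scored 157.97 and held 15 copies of its 12 bases in a unit of 21 bp. In the peak near DBNDD1, with a score of 119.47, the unit was 55 bp and occurred 16 times. An intron of PIEZO1, which encodes a mechanically gated cation channel, held 8 copies with a most common spacing of 40 bp under a score of 97.84. CDH4, which encodes R-cadherin, had 27 copies of a 31 bp unit at 110.94. The peak of both proteins between genes, at 159.73 the second-highest LSD1 peak of all, had 8 copies of a 39 bp unit, and the one in LGR5, the R-spondin receptor gene, 17 copies of another 39 bp unit. HP1γ reached 111.76 over 15 copies with a most common spacing of 33 bp, while the copies in the stretch shown are wider apart. It reached 108.37 over 19 copies with a most common spacing of 22 bp. All 8 stretches lay outside annotated exons and were chosen after the scores had been seen.

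Other strong peaks had no such structure. The next 3 stretches come from peaks in which no 12-base word recurred within the central 300 bp. Here capitals mark CG pairs, the sites of DNA methylation, which are dense at many gene starts.
HP1γ in NBR1, chr17:41341215-41341334: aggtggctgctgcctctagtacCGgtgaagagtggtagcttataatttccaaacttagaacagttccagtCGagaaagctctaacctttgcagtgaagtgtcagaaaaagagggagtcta
LSD1 and HP1γ in NLGN1, chr3:173344812-173344931: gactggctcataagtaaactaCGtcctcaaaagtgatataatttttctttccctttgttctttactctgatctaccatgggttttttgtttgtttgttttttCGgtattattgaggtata
LSD1 and HP1γ in ZNF639, chr3:179041324-179041443: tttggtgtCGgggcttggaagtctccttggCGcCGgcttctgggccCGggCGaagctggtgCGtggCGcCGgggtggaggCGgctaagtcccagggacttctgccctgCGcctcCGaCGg

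NBR1 encodes an autophagy receptor, and its HP1γ peak, in an intron 18056 bp from the start, scored 82.28 and held 8 CG pairs in all. NLGN1, which encodes the synaptic adhesion protein neuroligin 1, held the highest-ranked peak of both proteins, with a score of 89.43 for LSD1 and 105.26 for HP1γ and 4 CG pairs. ZNF639 encodes a zinc finger protein, and its shared peak, centred within 1 kb downstream of the start, held 73 CG pairs. In NBR1 and NLGN1 the CG pairs were thus sparse, and near the start of ZNF639 they were dense.

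Sequence that occurs more than 1 time in the genome was more frequent under LSD1 than under HP1γ at 30 min. A peak was counted as multi-copy when at least 50% of the 31-base words in its central 300 bp occurred more than 1 time in GRCh37, and as tandem when over 10% of its 12-base words recurred within those 300 bp. Both limits were set after the values had been seen. By this measure 3917 LSD1 peaks were multi-copy, 19.1% of the list (18.6% to 19.7%), against 2713 HP1γ peaks, 11.4% (10.98% to 11.8%). Windows of 300 bp placed every 50 kb along the genome gave 13.1%, a value between the 2 lists. The LSD1 share was above the HP1γ share on 23 of 23 chromosomes. It was above that of the windows on 20 chromosomes, and the HP1γ share was above it on 11. Tandem peaks made up 2.25% of the LSD1 list (2.06% to 2.46%) and 1.68% of the HP1γ list (1.53% to 1.85%), with 1.49% of the windows.

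Before hormone the order of the proteins was the opposite. At 0 min 5.04% of LSD1 peaks and 8.99% of HP1γ peaks were multi-copy, and 0.529% and 1.26% were tandem. By both measures LSD1 thus had the lowest share of the 4 lists before hormone and the highest after it. The multi-copy share of HP1γ was below that of the windows at both times, and its tandem share was below it at 0 min and above it at 30 min. The number of LSD1 multi-copy peaks itself was 1765 at 0 min and 3917 at 30 min, while the list as a whole became shorter. For HP1γ the number was 2862 and 2713. Reads that map to several places were handled in a way not given in the sources used here, and the part of mapping or depth in these shares was not tested.

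Both shares followed the score at 30 min. In LSD1 peaks with a score from 30 to 40 the multi-copy share was 17.9%, from 50 to 60 it was 23.9%, and at 80 or more it was 55.8% (45.3% to 65.8%, 86 peaks). The HP1γ shares for the same ranges were 11.4%, 11.6% and 26.3% (18.6% to 35.7%, 99 peaks). At a score of 80 or more, 33.7% of LSD1 peaks and 13.1% of HP1γ peaks were tandem. The LSD1 list at 0 min showed no such slope, with 5.15% multi-copy at a score from 30 to 40 and 4.0% at 80 or more. The HP1γ list at 0 min did, with 8.93% and 15.5% multi-copy and 1.08% and 5.5% tandem for the same ranges.

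**Figure D1:**
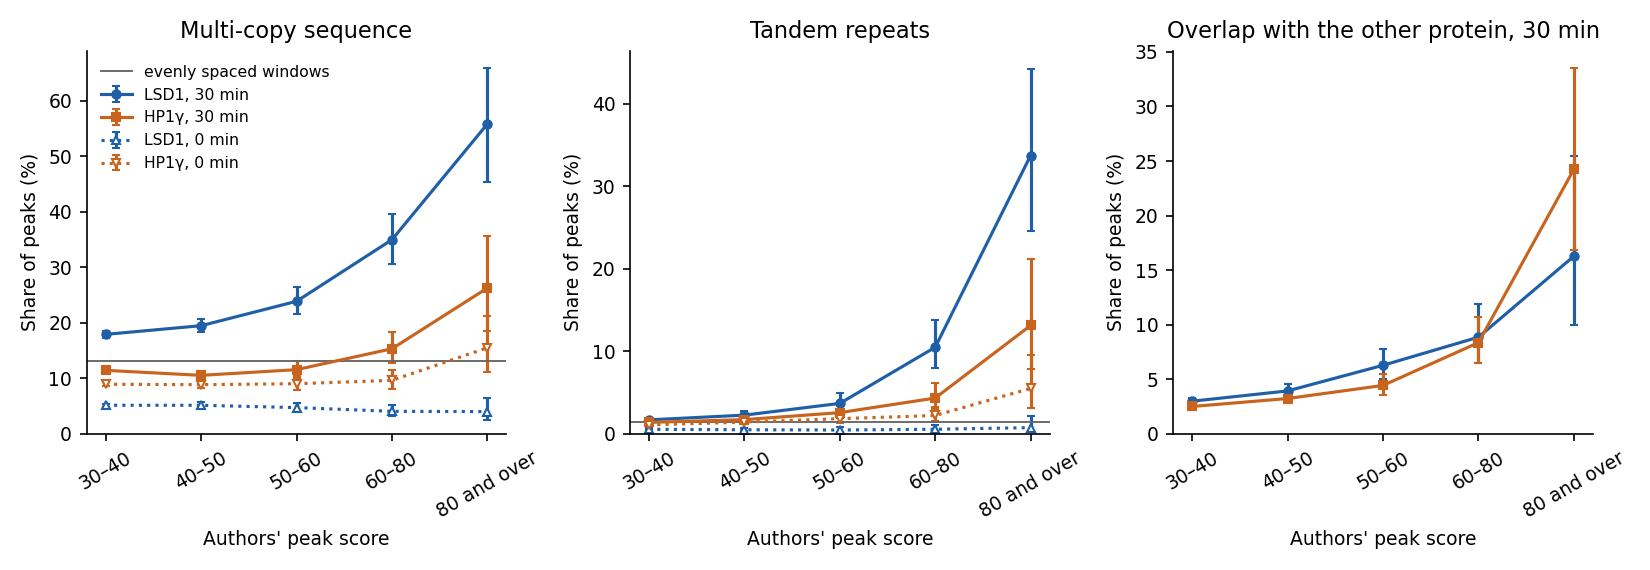
Share of peaks (y axes, percent) by range of the authors' peak score (x axes): multi-copy sequence on the left and tandem repeats in the middle for LSD1 (blue) and HP1γ (orange) at 30 min (solid) and 0 min (dotted), with evenly spaced genome windows as a grey line; overlap with the other protein at 30 min on the right. Bars are 95% Wilson intervals; the LSD1 line at 30 min climbs to 55.8% multi-copy and 33.7% tandem at scores of 80 or more.

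Long duplicated blocks were a second form of multi-copy sequence. In a duplicated block on the long arm of chromosome 5, 95 LSD1 and 40 HP1γ peaks were called, of which 91 and 39 were multi-copy, against 23 and 26 peaks at 0 min. The window chr9:42000001-43000000 had 34 LSD1 and 18 HP1γ peaks, all of them multi-copy, against 8 and 6 at 0 min. Both blocks were picked for their excess of LSD1 over HP1γ peaks at 30 min, so that excess is a description. The top HP1γ peaks showed the same kind of sequence, since the highest, with a score of 153.18, and the next, with 132.38, were copies of each other on chromosome 10. Of the 31-base words of the second, 81.0% recurred in the first, and a stretch of 150 bp was identical in both, here shown from the second, chr10:46913165-46913314, with its twin at chr10:47395237-47395386.
HP1γ on chromosome 10: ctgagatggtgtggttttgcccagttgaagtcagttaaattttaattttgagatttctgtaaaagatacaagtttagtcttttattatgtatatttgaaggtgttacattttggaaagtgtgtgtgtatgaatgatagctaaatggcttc
The higher of these peaks also overlapped an LSD1 peak at 30 min and peaks of both proteins at 0 min, and the lower one overlapped none.

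LSD1 and HP1γ met at few places 30 min after the hormone. An overlap of at least 1 bp was found for 730 LSD1 peaks, 3.56% of the list (3.32% to 3.82%), and for 734 HP1γ peaks, 3.08% (2.87% to 3.31%). They formed 740 pairs with a median overlap of 289 bp, and in 483 pairs the overlap was at least 50% of the shorter peak. Measured in bases, 2.25% of LSD1 sequence lay inside HP1γ peaks, which covered 0.367% of the genome. On chromosome 3 the same value was 4.97%, where HP1γ covered 0.963%, and on chromosome 2 it was 0.858% against 0.0921%. The shared bases were therefore a multiple of the covered share on each of these chromosomes, and still a small part of the list.

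Shared peaks were more frequent among high scores. The share of LSD1 peaks that overlapped HP1γ was 2.99% for scores from 30 to 40 and 16.3% (9.95% to 25.5%) at 80 or more. Among HP1γ peaks it was 2.51% and 24.2% (16.9% to 33.5%). Between the same ranges the median width rose from 433 to 708 bp for LSD1 and from 438 to 692 bp for HP1γ. The part of the peaks on chromosome 3 rose from 13.7% to 30.2% and from 13.8% to 45.5%. How far width and chromosome went into this rise was not tested. Chromosome 3 held 256 of the 730 shared LSD1 peaks, where 8.41% of LSD1 peaks were shared against 1.13% on chromosome 2. Of the shared LSD1 peaks 23.01% were multi-copy, against 18.97% of the others, and of the shared HP1γ peaks 24.7% against 10.96%. Peaks within 100 kb of an assembly gap made up 8.08% of shared LSD1 peaks and 3.16% of the whole list, with 1.70% of the genome that near to a gap. The part of repeats and gaps in the overlap was not tested, but without multi-copy and tandem peaks it was 3.16% of LSD1 and 2.48% of HP1γ peaks.

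Most peaks were found in 1 list alone. No peak of the other protein at 30 min and none of either protein at 0 min overlapped 17842 LSD1 peaks, 87.1%, and 20517 HP1γ peaks, 86.1%. LSD1 peaks at 30 min overlapped more LSD1 peaks of 0 min, 6.38%, than HP1γ peaks of 30 min, and HP1γ peaks at 30 min overlapped the LSD1 list of 0 min, 7.07%, more than the HP1γ list of 0 min, 5.76%. The lists at 0 min were longer. With the 10000 highest-scored peaks of each list, 2.43% of LSD1 peaks overlapped HP1γ at 30 min and 4.93% at 0 min. The pairing of the proteins was thus lower at 30 min also for lists with an equal number of peaks. In the whole lists the peaks at 0 min were wider, with medians of 536 bp for LSD1 and 468 bp for HP1γ. At 30 min these medians were 437 and 442 bp, and the part of peak width in the pairing was not tested. Shared peaks also met the earlier list more often: 15.9% of the LSD1 peaks that overlapped HP1γ at 30 min also overlapped LSD1 at 0 min, against 6.03% of the others.

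Neighbourhoods were shared to a far greater degree than sites, though wider units also have more room for both proteins. The median LSD1 peak had the nearest HP1γ centre 22502 bp away, and the median HP1γ peak the nearest LSD1 centre 25491 bp away. On chromosome 3 these medians were 8392 and 11072 bp, and on chromosome 2 they were 142096 and 133275 bp. Over 2768 windows of 1 Mb the LSD1 and HP1γ counts had a Spearman correlation of 0.823, given as a description, since the windows share chromosomes and the same cells. Within single chromosomes the median was 0.616, with a range from 0.023 to 0.885. How far peak density alone went into these distances and correlations was not tested. Widths were also alike, with a median of 437 bp (quartiles 404 to 490) for LSD1 and 442 bp (411 to 497) for HP1γ.

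Chromosome 3 was the densest for both proteins, with 15.4 LSD1 and 18.9 HP1γ peaks per Mb, and chromosome X the sparsest, with 0.992 and 0.876. The order of the 23 chromosomes was nearly the same in both lists (Spearman 0.988). The H2A level per annotated transcript, a median over the genes of each chromosome, followed the same order (Spearman 0.829 with LSD1 and 0.830 with HP1γ). The number of copies of each chromosome in the cells was not measured, and its part in the densities was not tested. The densest window of 1 Mb, chr3:174000001-175000000, had 85 LSD1 and 90 HP1γ peaks.

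The balance of the proteins changed from dense to sparse chromosomes, and it did so in opposite ways at the 2 times. LSD1 made up 46.2% of the peaks of both lists at 30 min. On the 6 densest chromosomes, 3, 5, 8, 10, 12 and 17, its share was 45.0% (44.4% to 45.7%). The 6 sparsest, 2, 4, 18, 19, 22 and X, gave 53.3% (51.5% to 55.1%). Chromosome 18 had the highest share, with 170 LSD1 and 119 HP1γ peaks, and chromosome 11 the lowest, with 1130 and 1482. At 0 min the dense chromosomes had 54.0% and the sparse ones 41.9%. The chromosomes were grouped by these same counts, so the values are a description.

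Multi-copy peaks moved with this balance. On the sparse chromosomes 37.7% of LSD1 and 24.6% of HP1γ peaks were multi-copy, and on the dense ones 12.2% and 8.15%. Without multi-copy and tandem peaks the LSD1 share was 48.3% (46.1% to 50.5%) on the sparse and 43.9% (43.2% to 44.6%) on the dense chromosomes. The gap between the groups was then smaller, and the intervals still did not overlap. At 0 min the same step left 43.5% and 55.0%.

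**Figure D2:**
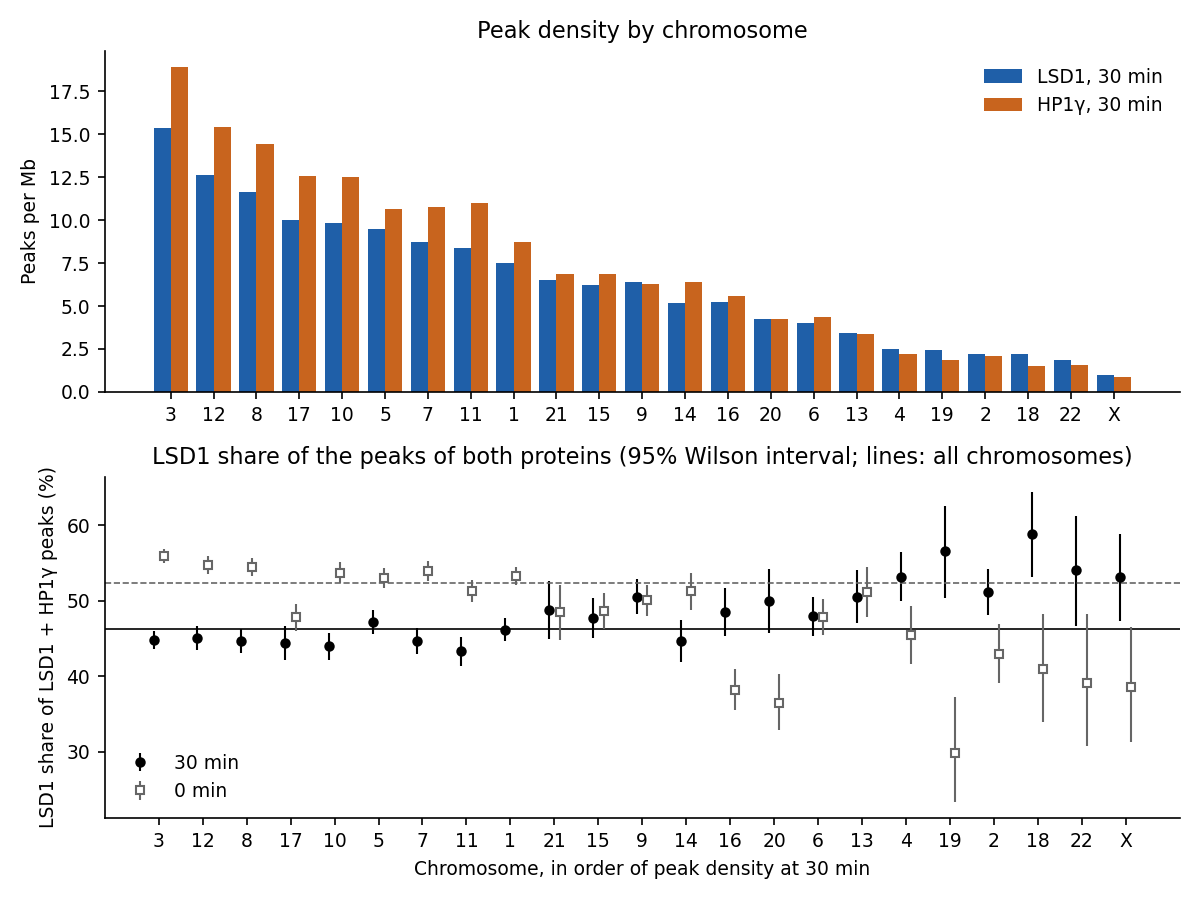
Upper panel: peaks per Mb (y axis) of LSD1 (blue) and HP1γ (orange) at 30 min on each chromosome (x axis, in order of density). Lower panel: LSD1 share of the peaks of both proteins (percent) at 30 min (filled circles) and 0 min (open squares) with 95% Wilson intervals, horizontal lines giving all chromosomes together (46.2% and 52.4%); the 6 sparsest chromosomes on the right lie above the 30 min line and below the 0 min line.

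Some windows on chromosome 3 favoured HP1γ. The window chr3:181000001-182000000, with SOX2 in it, had 47 LSD1 and 82 HP1γ peaks, and chr3:182000001-183000000, with ATP11B and LAMP3, had 44 and 79. In chr3:187000001-188000000, with BCL6, the transcriptional repressor of germinal centre cells, the counts were 20 and 50. At most 4 peaks of either list in these windows were multi-copy. The opposite was seen in chr3:172000001-173000000, with ECT2 and TNFSF10, where LSD1 had 68 peaks and HP1γ 55. These windows were picked for their differences and are given without a test.

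Gene starts were the second place where the lists differed. HP1γ had 382 peak centres within 1 kb of the start of a gene in the H2A gene table, 1.60% of its list (1.45% to 1.77%), and LSD1 256, 1.25% (1.11% to 1.41%). Without multi-copy and tandem peaks these 2 intervals overlapped, with 1.68% (1.515% to 1.86%) for HP1γ and 1.35% (1.18% to 1.53%) for LSD1. That window around all starts covered 1.25% of the genome, and the LSD1 interval included that value while the HP1γ interval lay above it. In the 500 bp upstream of a start the HP1γ list had 0.847% of its peaks per kb and LSD1 0.556%. Between 5 and 10 kb downstream the values were 0.533% for HP1γ and 0.620% for LSD1. Within 1 kb of a start the shares at 0 min were 2.03% for HP1γ and 0.897% for LSD1. Within 500 bp of a start LSD1 had 0.280% of its peaks at 0 min and 0.581% (0.485% to 0.694%) at 30 min, and HP1γ 1.05% and 0.789% (0.684% to 0.909%).

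**Figure D3:**
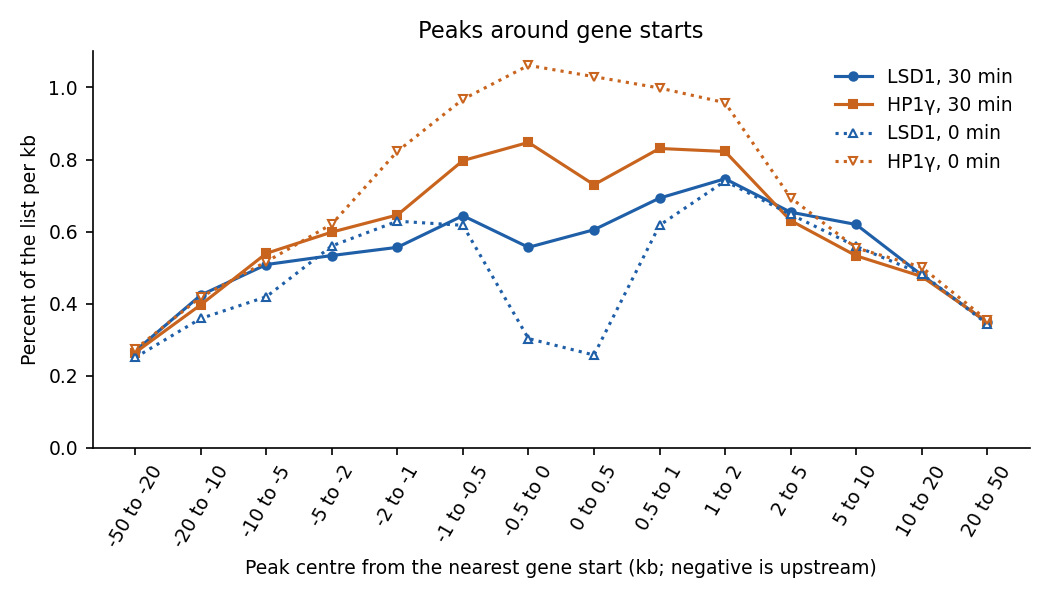
Percent of each list per kb (y axis) by distance of the peak centre from the nearest gene start (x axis, kb, negative upstream, bins of unequal width) for LSD1 (blue) and HP1γ (orange) at 30 min (solid) and 0 min (dotted). At 30 min HP1γ lies above LSD1 within 1 kb of the start, and LSD1 just upstream of the start is at 0.556% per kb, against 0.303% at 0 min.

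Farther from starts the 2 lists were alike. The median distance to a start was 77892 bp for LSD1 and 78212 bp for HP1γ. Peak centres inside genes made up 40.3% (39.6% to 41.0%) of LSD1 and 39.9% (39.3% to 40.5%) of HP1γ, where genes of the table covered 36.6% of the genome. Exons of protein-coding genes held 3.89% and 3.96%. Over peak centres inside the 8433 genes of at least 30 kb, the fifth next to the start of the body had 21.3% of LSD1 and 20.7% of HP1γ peaks and the fifth next to the end 18.5% and 18.7%.

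Few starts held both proteins. Of the 20318 genes of the table, 277 (1.36%) had an LSD1 centre within 1 kb of the start, 403 (1.98%) an HP1γ centre, and 17 both. As a part of the starts with LSD1, 17 of 277 is more than the 1.98% of all genes with HP1γ there. ZNF639 ranked first among these, with LSD1 at 55.73 and HP1γ at 65.42 in peaks that overlapped almost fully. At STK38L, a kinase of the NDR family, LSD1 scored 38.64 and HP1γ 53.38, both upstream of the start. The divergent pair TDG, a DNA glycosylase that takes part in DNA demethylation, and C12orf73 shared peaks of 33.94 and 52.88. GFOD2, DGKB, a diacylglycerol kinase, and ZIC4, a zinc finger factor of brain development, also had both.

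No gene was among the 5 highest-scored starts of both proteins. Among the leading LSD1 starts were DYNC2H1 (69.96), the heavy chain of a ciliary dynein, GTPBP4 (66.99), ETV3 (65.36), an ETS-family repressor, and CAPS2 (64.38). HP1γ led at PCDHB1 (75.63), a protocadherin, YKT6 (74.17), a SNARE of vesicle fusion, RFC4 (70.26), a subunit of the replication clamp loader, ZNF639 (65.42) and TMEM14A (61.87). GTPBP4 had no HP1γ peak in or within 5 kb of the gene, and TMEM14A no LSD1 peak.

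Counted over whole genes with 5 kb on each side, LSD1 touched 4977 of 20318 genes (24.5%) and HP1γ 5217 (25.7%). Both proteins touched 2658 genes (13.1%), LSD1 alone 2319 (11.4%) and HP1γ alone 2559 (12.6%). Genes were thus shared to a much greater extent than sites: 53.4% of the genes with LSD1 also had HP1γ, against 16.7% of the genes without LSD1. The counts followed gene length. Of genes under 10 kb LSD1 touched 8.89% and HP1γ 10.3%, and of genes of 300 kb or more 78.6% and 77.9%. Among the longest, 85.7% of those with LSD1 also had HP1γ, and among those under 10 kb 22.02%. Of the 2319 genes with LSD1 alone, 1875 had 1 peak, and 876 were touched by HP1γ at 0 min. Of the 2559 with HP1γ alone, 1972 had 1 peak, and 996 were touched by LSD1 at 0 min. In the gene table, start and end are often those of 1 transcript (50.2% of matched genes equal a transcript and 8.52% the whole gene in GENCODE v44lift37), which limits every count of genes here.

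**Figure D4:**
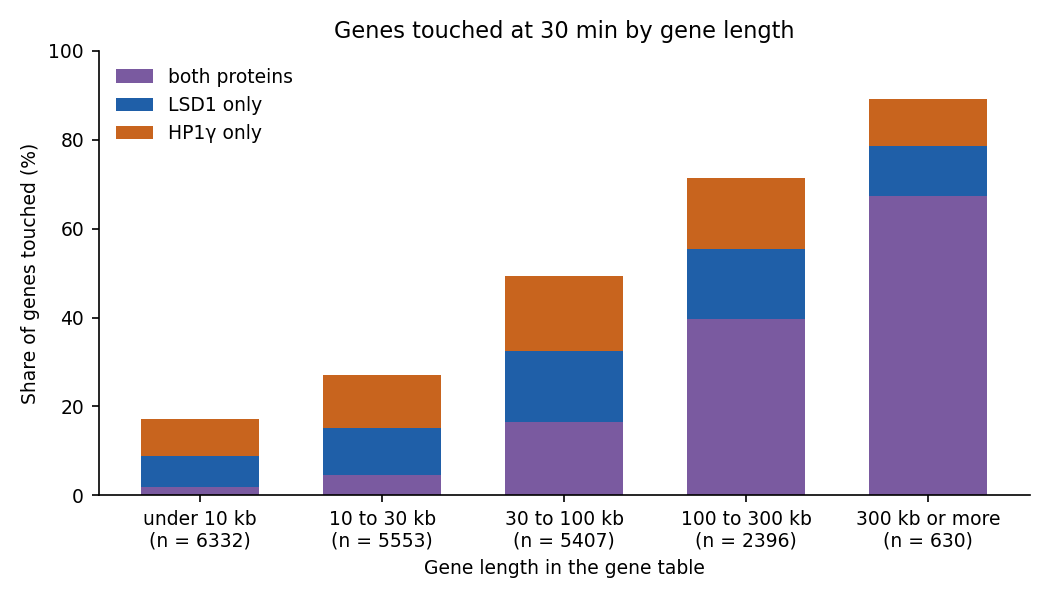
Share of genes (y axis, percent) touched at 30 min by both proteins (purple), LSD1 only (blue) or HP1γ only (orange), by gene length in the deposited table (x axis, with the number of genes). The part touched by both grows from 1.96% under 10 kb to 67.3% at 300 kb or more.

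The genes with the strongest LSD1 peak and no HP1γ peak were mostly those with repeats. KCNS3, a modifier subunit of voltage-gated potassium channels, had 2 LSD1 peaks, the higher at 138.83. FAM132A and UBE2J2, a ubiquitin-conjugating enzyme, lay on either side of 1 peak at 99.02. GRIN1, the obligatory subunit of NMDA receptors, reached 95.78. FAM117A (86.03), UBAP2 (85.75) and S100A10 (79.78), the partner of annexin A2, completed the 10 with TMC6, DBNDD1 and PIEZO1. For 8 of these 10 genes the best peak was multi-copy and for 7 it was tandem.

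The genes with the strongest HP1γ peak and no LSD1 peak were of another kind. Among their best peaks 0 of 10 were multi-copy and 1 was tandem, in DLEC1 (75.08). FLJ42393 came first at 86.16, through a peak that also lies in the table's extent of LPP, and NBR1 second at 82.28. TTC13 had 4 HP1γ peaks, the highest at 81.32, LRRC34 2 (80.37) and C5orf64 2 (79.13). PTGES3, the p23 co-chaperone that acts with HSP90 on steroid receptors, had 2, the higher at 77.81 in the gene. GPR137B (76.74) and PRDX6 (76.55), a peroxiredoxin, were also among them.

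Where both proteins had high-scored peaks in 1 gene, it was usually on chromosome 3. None of the best LSD1 and HP1γ peaks of the 10 leading genes was multi-copy or tandem, and their other peaks were not read for this. The best peaks of the 2 proteins overlapped in NLGN1 and lay apart in the other leading genes. NLGN1 had 70 LSD1 and 76 HP1γ peaks, the most of any gene in both lists. VPS8, of endosomal vesicle tethering, had 18 and 7, MAP3K13, a kinase of JNK signalling, 9 and 16, and LPP, a LIM protein of cell adhesion, 11 and 26. DLG1, a scaffold of epithelial polarity, had 14 and 21, EIF2B5, a subunit of the exchange factor of translation initiation with a table extent of 549 kb, 13 and 10, MECOM, the EVI1 transcription factor locus, 35 and 54, and IL1RAP, the interleukin 1 co-receptor, 16 and 6. Off chromosome 3 were CTNNA3, an alpha-catenin, with 31 and 37, and AUTS2 with 17 and 16. CADM2, an adhesion protein (44 and 42), FGF12 (33 and 47) and KCNMB2, a subunit of calcium-activated potassium channels (30 and 43), were the others with most peaks.

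Among 305 genes of at least 100 kb with 10 or more peaks, the median LSD1 share of the peaks was 42.9% (quartiles 36% to 50%). The highest shares were at ROBO1, an axon guidance receptor, with 8 LSD1 and 2 HP1γ peaks, IL1RAP, DENND1B (8 and 3), KCNB2 (8 and 3) and MBNL1, a splicing factor (8 and 3). The lowest were at ANGPT1, the ligand of the TIE2 receptor, with 1 and 13, RPH3A, a synaptic vesicle protein (1 and 9), GRID1 (2 and 11), KIRREL3 (2 and 10) and LOC101928705 (2 and 10). At 0 min ANGPT1 had 14 LSD1 and 12 HP1γ peaks and ROBO1 2 of each. These genes were named for their counts, which are a description.

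Gene groups were read against the shares over all genes, 24.5% for LSD1 and 25.7% for HP1γ. Of 38 progestin response genes LSD1 touched 12, HP1γ 8 and both 5. PRLR, the prolactin receptor, had 1 LSD1 peak (42.54) and 4 HP1γ peaks (up to 62.62), and TIPARP, a mono-ADP-ribosyltransferase, 1 and 2 (39.23 and 61.11). PGR, the progesterone receptor gene, had 1 of each, at 55.45 and 43.73. LSD1 alone lay at FKBP5 (3 peaks), the HSP90 co-chaperone, and, with 1 peak each, at CDKN1A (42.23), the p21 cell cycle inhibitor, and STAT5A (38.56). Further genes with 1 LSD1 peak alone were FOXO1 (36.00), SGK1 (32.61), ELF5 (31.94) and DUSP1 (30.16). HP1γ alone lay at BCL6 (1 peak, 49.41) and HES1 (1 peak, 35.79), a NOTCH target, among others. Scores near 30 are at the lower limit of the lists. None of the 38 starts had a peak centre of either protein within 1 kb, while 1.36% of all genes had one of LSD1 and 1.98% one of HP1γ, shares that 38 genes are too few to tell from 0.

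Classic estrogen targets gave 5 of 18 with LSD1 and 9 with HP1γ, and the 5 were among the 9: SIAH2, PGR, NRIP1, IL6ST and BCL2. CXCL12, ADCY9, PDZK1 and KRT13 had HP1γ alone. Of 17 luminal transcription factors LSD1 touched 5 and HP1γ 6. TRPS1 had 14 and 17 peaks, GRHL2 4 and 6 and GATA3 1 and 1, while TBX3 and TFAP2A had HP1γ alone. In these 3 lists the intervals of LSD1 and HP1γ overlapped. They included the share over all genes except for HP1γ at estrogen targets, where 50% were touched (29.0% to 71.0%). The median length of the estrogen targets was 36961 bp. HP1γ touched 33.5% of all genes from 30 to 100 kb, a value inside that interval.

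The proteins' own complexes were also examined. LSD1 touched 8 and HP1γ 7 of 28 genes of LSD1, CoREST and NuRD, and 5 and 7 without multi-copy and tandem peaks. KDM1A, the gene of LSD1 itself, had an LSD1 peak at -2058 bp from its start (41.58) and none of HP1γ. RCOR3, a CoREST protein, had 1 and 2 (55.53 and 46.95), GFI1B, which recruits LSD1, 2 and 0, and CTBP2 0 and 2. Of 17 genes of HP1 and its partners LSD1 touched 10 (58.8%, 36.0% to 78.4%) and HP1γ 8 (47.1%, 26.2% to 69.0%), both intervals above the shares over all genes. Their median length was 38326 bp, and of all genes from 30 to 100 kb LSD1 touched 32.5% and HP1γ 33.5%. The HP1γ interval included 33.5%, and the LSD1 interval lay above 32.5%. CBX5, the gene of HP1α, had both (34.92 and 58.69), CBX1, the gene of HP1β, LSD1 alone, and EHMT1 and SETDB1, methyltransferases of lysine 9, both. Without multi-copy and tandem peaks LSD1 touched 7 of these genes (21.6% to 64.0%) and HP1γ 8. The LSD1 interval then included 32.5%, a share that was counted with all peaks.

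The series is about ATP made in the nucleus from ADP-ribose. Of 25 genes of poly-ADP-ribose and NAD metabolism LSD1 touched 11 (interval 26.7% to 62.9%) and HP1γ 9 (20.2% to 55.5%). With a median length of 42071 bp they compare with genes from 30 to 100 kb. Of those LSD1 touched 32.5% and HP1γ 33.5%, values inside these intervals. Without multi-copy and tandem peaks LSD1 touched 10 of the 25 (23.4% to 59.3%) and HP1γ 7. NUDT5, the hydrolase of ADP-ribose, had HP1γ alone, at -2657 bp from the start (41.85), and NUDT9 had 2 LSD1 peaks, the higher at 54.34. PARP1, the main poly-ADP-ribose polymerase, had 1 HP1γ peak (34.79), NMNAT1, the nuclear NAD synthase, 1 LSD1 peak (42.54), and PARP8 1 and 5. Among 14 NURF and ISWI genes LSD1 touched 3 and HP1γ 5, BPTF itself with 1 and 4 peaks, and among 23 BAF genes 6 and 5, with SMARCD2 (60.22 and 57.19) and SMARCE1 (43.50 and 57.94) touched by both. G1/S genes had 6 and 5 of 31.

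Markers of other lineages were touched too. Of 25 neuronal genes known as REST targets, 10 had LSD1 and 7 HP1γ, and all 7 of the latter also had LSD1; NLGN1 alone carried most of their 91 LSD1 and 101 HP1γ peaks. Mesenchymal and basal markers had 9 (interval 25.8% to 65.8%) and 7 of 20, with TP63 at 8 and 16 peaks, and ZEB1, SPARC and CDH2 with LSD1 alone. The median length of this list was 44388 bp, and LSD1 touched 32.5% of all genes from 30 to 100 kb, inside that interval. Immune markers had 5 and 2 of 18, among them PTPRC with 9 and 4, and 3 and 1 without multi-copy and tandem peaks. No expression was measured, so whether other cells were in the culture was not tested.

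In clustered families 1 peak can touch several genes. HP1γ touched 12 of 30 HOX genes (interval 24.6% to 57.7%) from 7 distinct peaks and LSD1 3 (3.46% to 25.6%) from 3. The HOXC genes HOXC5, HOXC6, HOXC9 and HOXC10 shared an HP1γ peak at 50.79. Of 55 replication histone genes HP1γ touched 18 and LSD1 8, from 9 and 6 peaks. Without multi-copy and tandem peaks HP1γ touched 16 of them (18.8% to 42.1%) through 8 peaks and LSD1 3 (1.87% to 14.9%) through 3. These intervals did not overlap, but they treat genes that share a peak as separate. HIST1H3I and HIST1H2BE were among the 5 with an HP1γ centre at the start, and LSD1 had 0 there. Zinc finger genes had 91 of 439 with HP1γ (20.7%, 17.2% to 24.8%) and 67 with LSD1 (15.3%, 12.2% to 18.9%). Both were below the share over all genes. Their median length was 20991 bp, and of all genes from 10 to 30 kb LSD1 touched 15.04% and HP1γ 16.77%. The LSD1 interval included 15.04%, and the HP1γ interval lay above 16.77%. Without multi-copy and tandem peaks the HP1γ interval was 12.8% to 19.7% and included 16.77%, a share that was counted with all peaks. Olfactory receptors (20 with LSD1 and 31 with HP1γ of 358) and ribosomal protein genes (7 and 8 of 75) were also below the share over all genes. Their median lengths were 1031 and 4409 bp, and of all genes under 10 kb LSD1 touched 8.89% and HP1γ 10.3%. The intervals of both groups included these values, except for LSD1 at olfactory receptors (3.65% to 8.47%), which lay below 8.89%.

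Protocadherins had the highest shares, 39 of 62 with LSD1 and 46 with HP1γ, from 28 and 44 peaks, since the clustered genes on chromosome 5 overlap each other. Their median length was 114328 bp, and of all genes from 100 to 300 kb LSD1 touched 55.5% and HP1γ 55.7%. Potassium channel genes had 25 and 27 of 79, of which 21 had both. KCNMA1, the pore of the large-conductance channel, had 9 LSD1 and 27 HP1γ peaks, and KCNAB1 8 and 21. Collagens had 10 and 12 of 41. Differences between the proteins within a group were not tested. With all peaks the intervals of the 2 proteins overlapped in each of the 20 groups, in the HOX genes by the narrowest margin, and without multi-copy and tandem peaks they did not overlap in the replication histones.

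**Figure D5:**
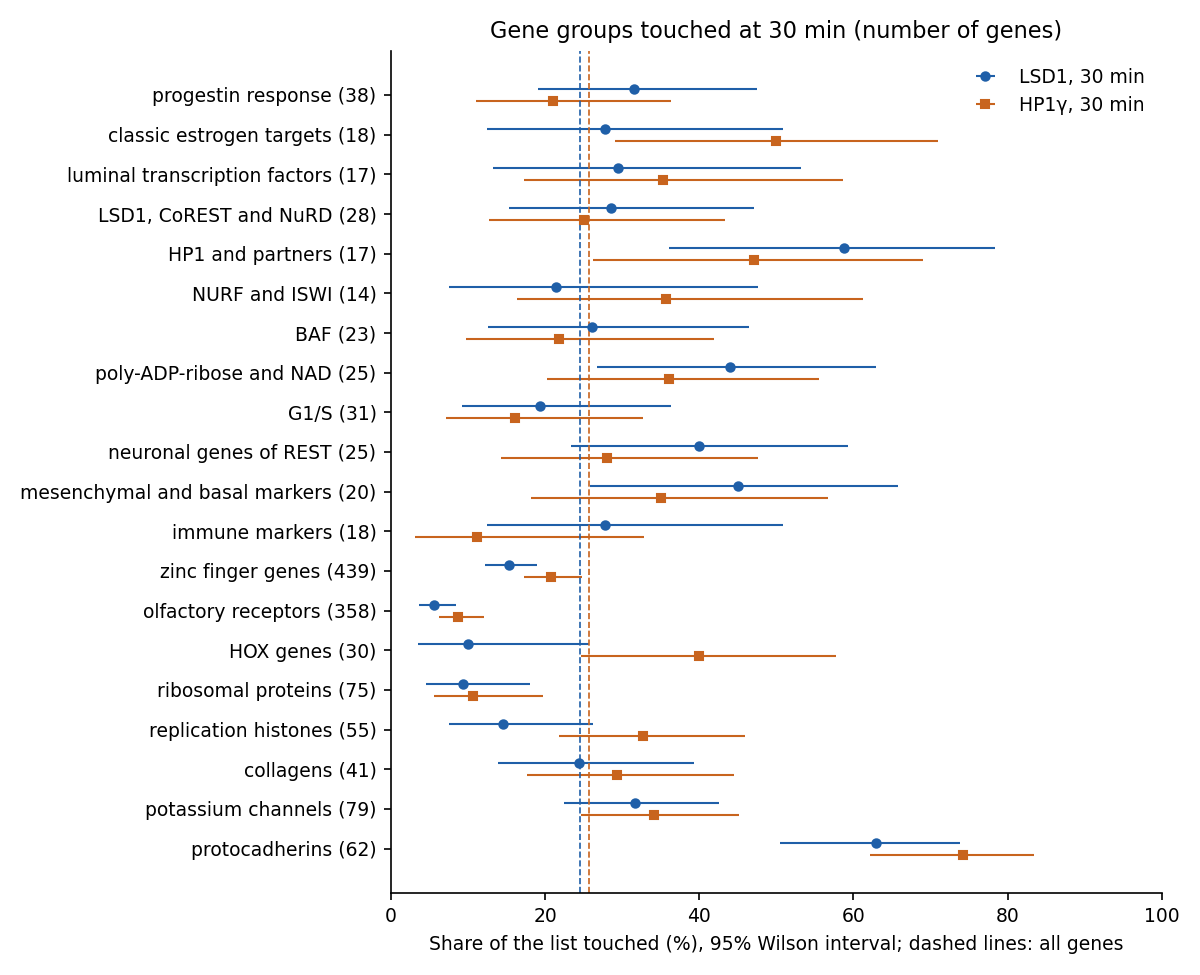
Share of each gene group (rows, number of genes in brackets) touched at 30 min by LSD1 (blue circles) and HP1γ (orange squares), in percent (x axis) with 95% Wilson intervals over genes; dashed lines give the share over all genes (24.5% and 25.7%). Protocadherins lie far to the right, olfactory receptors and ribosomal proteins to the left, and the HOX genes and replication histones show HP1γ to the right of LSD1. The shares are not adjusted for gene length.

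Gene levels of H2A, a core histone whose signal follows nucleosomes, were a readout that the peak lists did not use. In the deposited RPKM table the median log2 ratio of 30 to 0 min (RPKM plus 0.05) was -0.11 for genes with LSD1 only, -0.11 for HP1γ only, 0.00 for both and -0.19 for neither, with -0.14 over all 19713 genes at a mean RPKM of at least 0.1. Both single-protein classes thus had the same value to 2 decimals. H2A had 1 library a time. GC content moved with the classes, with a median of 43.5%, 43.6%, 40.3% and 48.1%. After subtraction of a trend through the medians of 50 GC bins, the class medians lay between -0.0030 and 0.0028.

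BPTF is the largest subunit of the NURF remodeller, and the authors' deposited lists give 1848 sites recruited and 5546 displaced by the hormone. LSD1 peaks at 30 min overlapped 35 recruited sites (1.89%, 1.36% to 2.62%) and HP1γ peaks 53 (2.87%, 2.20% to 3.73%). Displaced sites gave 126 (2.27%) and 138 (2.49%). The intervals of the 2 proteins overlapped in both lists. Both LSD1 and HP1γ at 30 min overlapped 18 displaced sites, from which BPTF is listed as lost, 14 of them on chromosome 3, among them 2 in NAALADL2 and 1 each in KCNMB2 and LPP. Both overlapped 1 recruited site, on chromosome 14.

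Progestin response elements, inverted repeats of GNACA and its complement spaced by 3 bases (GNACANNNTGTNC, N being any base), were no more frequent in either list than in the genome. They were found within the central 300 bp of 66 LSD1 peaks (0.322%, 0.253% to 0.409%) and 84 HP1γ peaks (0.352%, 0.285% to 0.436%), against 0.370% of all 300 bp windows. The match is the same on both strands by its symmetry. Shown are 2 high-scored peaks of each list with such an element, with no exon in the peak and the element in capitals.
LSD1, chr3:156965245-156965305: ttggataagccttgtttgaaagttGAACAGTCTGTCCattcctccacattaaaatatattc
LSD1, chr3:190019851-190019911: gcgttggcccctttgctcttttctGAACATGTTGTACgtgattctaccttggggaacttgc
HP1γ, chr3:181820357-181820417: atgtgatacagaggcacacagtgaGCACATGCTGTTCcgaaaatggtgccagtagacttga
HP1γ, chr3:181972724-181972784: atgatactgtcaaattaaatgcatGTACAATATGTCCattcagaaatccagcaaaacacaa

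All 4 picked peaks lay on chromosome 3, and the LSD1 peaks scored 94.38 and 64.81 and the HP1γ peaks 69.39 and 67.11. These 4 are examples, and their chromosome is not a result about the other peaks with such an element. Estrogen response elements (GGTCANNNTGACC) were found in 4 LSD1 and 7 HP1γ peaks, 0.0195% and 0.0294%, with 0.0222% of the windows. The forkhead word TGTTTAC, searched on both strands, was in 5.38% (5.08% to 5.69%) of LSD1 and 5.25% (4.98% to 5.54%) of HP1γ peaks, above the 4.67% of the windows. GATA words (AGATAA) were in 22.3% and 22.6%, with 21.2% of the windows, and AP-1 words (TGANTCA) in 9.44% and 10.0%, with 9.31%. No interval of LSD1 and HP1γ was apart from the other for any of the 5 words. A word is a description of the sequence and not a bound site. GC content was also near equal, with a median of 38.1% in LSD1 and 39.0% in HP1γ. The mean over all 300 bp windows was 40.9%, and the part of base composition in the word shares was not tested.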

How the data were processed

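Chromatin immunoprecipitation of LSD1 and HP1γ was sequenced, and the authors deposited 1 list of peaks per protein and time, with a score for each peak. Per the submitters' processing notes, Bowtie 1.0.0, HOMER 4.7.2 and the hg19 build (GRCh37) were used; the peak caller, the definition of the score and the handling of reads that map to several places are not given in the sources used here. H2A levels are deposited as RPKM, which HOMER 4.7.2 computed over GENCODE v18 genes on both strands per the file headers. The BPTF lists are as the authors deposited them, with no score.

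From these files overlaps of at least 1 bp, genes with a peak within 5 kb of the start or end, and centres within 1 kb of a start were counted, with 95% Wilson intervals. H2A ratios used a pseudocount of 0.05 and genes at a mean RPKM of at least 0.1. Words of 31 bases were counted in GRCh37 at 1 in 5 positions of a peak's central 300 bp. Python 3.11.15, NumPy 2.4.6, pandas 2.3.3, SciPy 1.17.1 and matplotlib 3.10.9 were used, and the counting was tested on simulated data. Each group of the 9 samples had 1 library, so no test was run. The depth of the peak lists is unknown.

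Genes were named by rule: the 10 best-scored genes of each protein alone and of both, the 5 with most peaks in each list, those of at least 100 kb and 10 or more peaks with the 5 highest and 5 lowest LSD1 shares, leading starts, and members of 20 gene lists. The members and lists were chosen with earlier results of these data known. Not every gene of the rule or list member is reported here, and the H2A library at 60 min was not used.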

Additional observations from a re-analysis of the deposited data

How the results depend on the processing

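No paired analysis was possible because each antibody and time had 1 library. Of 122 recomputed values, 31 shares or counts stayed within their counting interval or, for counts of genes, within 1.5 times. A further 27 medians of width, GC or H2A stayed within the quartiles of single peaks or genes, a wide limit. Of the others 61 moved further and 3 changed sign; the cause was not tested. The settings that use multi-copy or tandem peaks, and the GENCODE starts, were chosen after seeing the data. A planned share of repeat bases was not run, since the genome given marks no repeats.

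The overlap as a share of LSD1 and of HP1γ peaks was 2.05% and 1.42% at a score of at least 50 in both lists, 2.43% and 2.41% for the 10000 highest-scored peaks, 2.72% and 2.37% without chromosome 3, 3.16% and 2.48% without multi-copy or tandem peaks, 2.34% and 2.02% for overlaps of at least 50% of the shorter peak, and 7.78% and 6.73% for edges up to 1 kb apart. Median widths at a score of at least 50 were 559 and 542 bp.

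The LSD1 share on the 6 sparsest and 6 densest chromosomes was 50.7% and 39.2% at a score of at least 50, 59.5% and 48.1% for the 10000 highest, and 48.3% and 43.9% without multi-copy or tandem peaks, so the sparse chromosomes had the higher share each time. Near starts, LSD1 and HP1γ had 6.11% and 6.76% within 5 kb, 1.59% and 1.99% by any base within 1 kb, and 2.34% and 3.00% at protein-coding transcript starts of GENCODE v44lift37, while HP1γ had 1.78% among the 10000 highest. HP1γ had the higher share each time. The intervals of the 2 proteins overlapped without multi-copy or tandem peaks. They also did at a score of at least 50, with 1.29% (0.85% to 1.94%) for LSD1 and 1.71% (1.27% to 2.30%) for HP1γ.

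LSD1, HP1γ and both touched 624, 913 and 171 genes at a score of at least 50, 2999, 2926 and 1257 with the 10000 highest, and 1335, 1656 and 229 within 5 kb of the start. The order of LSD1 and HP1γ thus turned for lists of equal length. Without the trend over GC content, the H2A medians turned sign for LSD1 only (0.0028), both (-0.0030) and neither (0.0015).

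BPTF sites recruited and displaced in LSD1, then in HP1γ, were 0.325%, 0.270%, 0.325% and 0.469% at a score of at least 50, 1.24%, 1.24%, 0.920% and 1.35% for the 10000 highest, and 4.65%, 5.97%, 6.44% and 6.85% for edges up to 1 kb apart. Displaced sites were 1.56% and 1.86% without chromosome 3. Progestin response elements in whole peaks were at 0.571% and 0.596%.

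Multi-copy LSD1 peaks were 28.3% at a score of at least 50, 20.7% for the 10000 highest, 21.2% without chromosome 3, 7.73% with at least 80% of the words, and 18.1% without tandem peaks; HP1γ had 13.1%, no such move for the 10000 highest, 12.6%, 3.91% and 10.6%. Depth per library is unknown, which limits every number of peaks, and a place without a peak may lie just under the authors' score of 30.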
